A study of Arabidopsis thaliana with 5 samples.

Results

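The genes described here are 8 pentatricopeptide repeat (PPR) genes of Arabidopsis chromosome 1 that carry small RNAs of the kind called secondary siRNAs, out of 38028 annotated nuclear and chloroplast genes. They were listed by gene name and position. In TAIR coordinates, AT1G12775 lies apart at chr1:4353842-4355929 (+). The other 7 sit together, from AT1G62590 at chr1:23176930-23179248 (-), through AT1G62670 (RPF2, chr1:23204256-23206822, -), AT1G62910 (chr1:23298948-23301141, +), AT1G62930 (RPF3, chr1:23306534-23308686, +), AT1G63070 (chr1:23385324-23387167, -) and AT1G63080 (chr1:23387574-23390838, -), to AT1G63130 at chr1:23412518-23415155 (+). Annotated introns were found in AT1G62590 (107 bases), AT1G62670 (150 bases) and AT1G63070 (71 bases), and the coding sequences were 1773 to 1935 bases long. Over these coding sequences, the 7 clustered genes were 82.7% to 90.9% identical to each other (median 85.8% over 21 pairs), and AT1G12775 was 66.0% to 67.5% identical to the 7.

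The study sequenced base-paired RNA (dsRNA-seq, RNA left after digestion with the single-strand-specific nuclease RNase One) and small RNA (smRNA-seq) from unopened flower buds of Arabidopsis thaliana. There were 5 libraries, 1 per condition: smRNA of the rdr6 mutant and of wild-type Col-0, dsRNA of the rdr6 mutant after 1 round of rRNA depletion (1X Ribominus), and dsRNA of wild-type Col-0 after 2 rounds (2X) and after 1 round (1X). The mutant carries the rdr6-11 allele in the Col-0 background, plants were 6 weeks old, and each dsRNA-seq library was made from RNA pooled from 3 biological replicates. The 2X library was listed with a different 3′ adapter from the other 4. No condition had a replicate library, so that each p below compares 2 libraries, not 2 genotypes. Intervals and limits cover counting error only. In whole buds, fewer cells that hold an RNA and less of it per cell cannot be told apart.

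PPR proteins bind RNA in mitochondria and chloroplasts, where they take part in its cleavage, editing, splicing and translation, and RPF2 and RPF3 (RNA PROCESSING FACTOR) are named for their part in processing the ends of mitochondrial transcripts. Some PPR mRNAs are cleaved under the guidance of miR161, miR400 or the trans-acting siRNAs of TAS1 and TAS2, whose own production starts with miR173. A cleaved RNA can then be copied into dsRNA by RNA-DEPENDENT RNA POLYMERASE 6 (RDR6) with SUPPRESSOR OF GENE SILENCING 3 (SGS3), and DICER-LIKE 4 (DCL4) with DRB4 cuts that dsRNA stepwise from the cleaved end into 21-nt siRNAs that act through ARGONAUTE proteins such as AGO1. Small RNAs made in this way follow each other in 1 register of 21 bases.

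The small RNAs that held the most Col-0 reads of 21 nt at each gene are shown first, because a few of them carry much of the signal. The letters are those of the TAIR10.1 reference at the location, 5′ to 3′ on the strand of the small RNA, with the first base in capitals. The reads themselves could differ from them by mismatches, since the sequences of the reads were not used here.
siRNA of AT1G62670, AT1G62590, AT1G63070, AT1G63080 and AT1G63130 (sense, at chr1:23205961-23205981, strand -, in AT1G62670): Aatggattatgtaagagaggt
siRNA of AT1G62930 (sense, chr1:23307215-23307235, strand +): Aacggattatgtaagagaggt
siRNA of AT1G62910 (sense, chr1:23299708-23299728, strand +): Agaggatgtcaaccagatctg
siRNA of AT1G12775 (sense, chr1:4354836-4354856, strand +): Gctggtagatgggatgatggt
small RNA antisense to AT1G62590 (chr1:23178190-23178210, strand +): Tcaatgcattgaacgtgacta
small RNA antisense to AT1G62930 (chr1:23307991-23308011, strand -): Ttttgcagatactcgaatacc
The first sequence had 8 locations in the genome, 5 of them in the genes described here, and the siRNA of AT1G62930 differs from it by T3C (base of the first, position from the 5′ end, base of the second). The other sense siRNAs are named by 1 gene but had 3 locations each. That of AT1G62930 also lay in AT1G62910 and AT1G63150, and that of AT1G62910 also in AT1G62914 and AT1G63150. That of AT1G12775 also lay in AT1G12300 and AT1G12620. The first sequence had 7 reads in rdr6 smRNA, against 1018 in Col-0 smRNA. The siRNA of AT1G62930 had 6 reads in rdr6, against 704 in Col-0. The siRNA of AT1G62910 had 5 reads in rdr6, against 1086 in Col-0, and that of AT1G12775 had 0 in rdr6, against 12 in Col-0. All 4 sense sequences were thus found nearly only in wild type, and the sequence antisense to AT1G62590 was abundant in both. The small RNA antisense to AT1G62590 had 2728 reads in rdr6, against 3172 in Col-0, and the one antisense to AT1G62930 had 10 reads in rdr6, against 1359 in Col-0.

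These antisense sequences are nearly the same as small RNAs of other genes, which are shown here as the guides that could pair with the mRNAs. Bases 2 to 8 (the seed) are in capitals, and coordinates are again on the reference.
miR161.2 (chr1:17825722-17825742, strand +): tCAATGCAttgaaagtgacta
miR161.1 (chr1:17825731-17825751, strand +): tGAAAGTGactacatcggggt
miR400 (chr1:11785947-11785967, strand +): tATGAGAGtattataagtcac
TAS2 siRNA of 21 nt (chr2:16539769-16539789, strand +): tTTTGCATatactcgaatacc
TAS2 siRNA of 22 nt (chr2:16539876-16539897, strand +): tATATCCCatttctaccatctg
The location antisense to AT1G62590 differs from miR161.2 by A14C, and the location antisense to AT1G62930 differs from the 21-nt TAS2 siRNA by T8G. Each difference was within what the alignments allowed, so that the same reads could have locations in MIR161 or TAS2 and in these PPR genes. Which location such a read matched exactly, and so which gene it came from, was not tested. At AT1G62590, reads with a further location in MIR161 numbered 2787 in rdr6, against 3255 in Col-0. At AT1G62930, reads also in TAS2 numbered 10 in rdr6, against 1408 in Col-0. Reads with ends within 1 base of miR161.1 numbered 11194 in rdr6 smRNA, against 17717 in Col-0, of which 91.7% in rdr6 and 92.3% in Col-0 began 1 base before the annotated end printed above. Those of miR161.2 numbered 2870 in rdr6, against 3352 in Col-0, and those of miR400 numbered 32 in rdr6, against 37 in Col-0.

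The first comparison asked which small RNAs of these genes were lower without RDR6. Small RNA reads were lower in rdr6 than in Col-0 at all 8 genes, by more than 70-fold at 7 of them. A gene was called when it had at least 10 reads in both libraries together, a ratio of at least 2 after division by mapped reads (11123274 in rdr6, 10674768 in Col-0), and p under 0.001 in the one-sided exact test of Audic and Claverie, and 4.09% of the 11968 genes tested were called lower by this rule. All log2 ratios below are of reads scaled in this way, rdr6 over Col-0. AT1G62910 had 23 reads in rdr6, against 4948 in Col-0 (log2 ratio -7.81). AT1G63070 had 17 reads in rdr6, against 3383 in Col-0 (-7.70), and AT1G62930 had 29 in rdr6, against 5032 in Col-0 (-7.50). AT1G62670 had 17 reads in rdr6, against 2918 in Col-0 (-7.48). Few reads were left at these genes in the mutant. AT1G63130 had 29 reads in rdr6, against 4939 in Col-0 (-7.47), and AT1G63080 had 28 in rdr6, against 4165 in Col-0 (-7.28). AT1G12775, the gene outside the cluster, had 4 reads in rdr6, against 278 in Col-0 (-6.18, exact p = 5.6e-80). AT1G62590 stood apart with 2818 reads in rdr6, against 5887 in Col-0 (-1.12, exact p = 6.03e-271), and most of its reads in rdr6 were those that also lie in MIR161. The median over the 8 genes was -7.48, and that over all genes with a ratio was 0.0033.

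**Figure D1:**
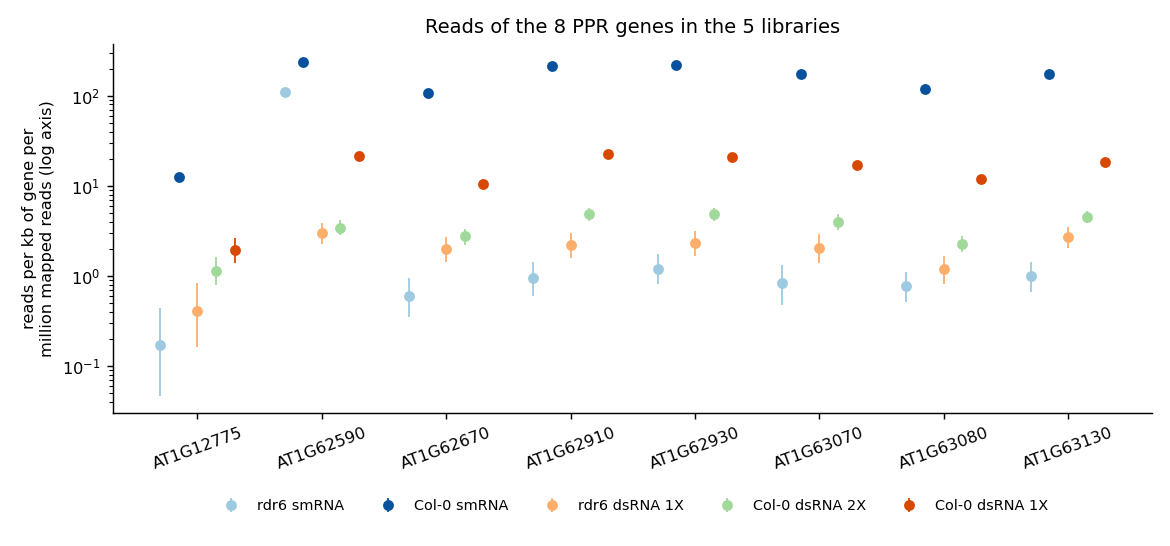
RPKM (reads scaled by gene length in kb and by mapped reads, log axis) at the 8 PPR genes in the 5 libraries, as points with exact 95% Poisson intervals. In Col-0 smRNA the genes lie between 12.47 and 237.8, and in rdr6 smRNA 7 of 8 lie at or below 1.21, with AT1G62590 at 109.2.

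Without the reads that also lie in annotated miRNA or TAS genes (other than MIR5652, which lies inside AT1G63130), AT1G62590 had 31 reads in rdr6, against 2631 in Col-0 (log2 ratio -6.47), and fell as the others did. On these reads all 8 genes were called lower, beside 4.04% of the genes tested, with log2 ratios between -7.94 and -6.00. With each read counted once over all 8 genes, there were 65 such reads in rdr6, against 9019 in Col-0, a 145-fold difference. With the miRNA and TAS reads kept, there were 2869 in rdr6, against 13782 in Col-0, a difference of 5.01-fold. Among the rdr6 reads at the 8 genes, 97.7% also lay in a miRNA or TAS gene, against 34.6% of the Col-0 reads.

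Most reads could not be given to 1 gene. Of the Col-0 smRNA reads at the 8 genes, 46.1% lay in at least 2 of them, with a median of 4 locations in the genome and at most 12. By where the locations lay, 5.69% of the reads had 1 location, 6.30% had several, all in the 8 genes, 51.1% lay in neighbouring PPR genes too, 34.6% in a miRNA or TAS gene too, and 2.37% elsewhere. With each read divided by its number of locations, AT1G62930 had 9 reads in rdr6, against 1333 in Col-0, and AT1G62910 had 7 in rdr6, against 1279 in Col-0, both rounded. AT1G62590 had 706 in rdr6, against 1231 in Col-0, and at 1.82-fold it was the gene of the 8 that was no longer called. The other 7 were, beside 3.57% of all genes tested.

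Reads with 1 location gave the same direction at every gene with enough of them. AT1G63130 had 2 such reads in rdr6, against 459 in Col-0 (log2 ratio -7.90), AT1G63080 had 3 in rdr6, against 201 in Col-0 (-6.13), and AT1G12775 had 1 in rdr6, against 57 in Col-0 (-5.89). AT1G62930 had 0 in rdr6, against 30 in Col-0, and AT1G62670 had 0 in rdr6, against 14 in Col-0. All 6 genes that reached 10 such reads were called, beside 3.06% of all genes tested, and AT1G62590 (0 in rdr6, 9 in Col-0) and AT1G63070 (0 in rdr6, 2 in Col-0) did not reach 10. How many single locations a gene can have depends on its sequence. Of all windows of 21 bases in the gene, 69.2% occur once in the genome for AT1G12775 and 67.1% for AT1G63080, but only 11.8% for AT1G62590 and 14.9% for AT1G62910.

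The sharing within the cluster was uneven. Of the Col-0 smRNA reads of AT1G62930, 91.7% also lay in AT1G62910, and of those of AT1G63070, 89.5% also lay in AT1G63130, both without miRNA and TAS reads. AT1G62590 shared 75.6% of its reads with AT1G62670, but 13.8% with AT1G62910 and 12.1% with AT1G62930. AT1G12775 shared at most 15.1% of its reads with any of the others. The values of the 7 clustered genes are therefore not independent of each other.

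**Figure D2:**
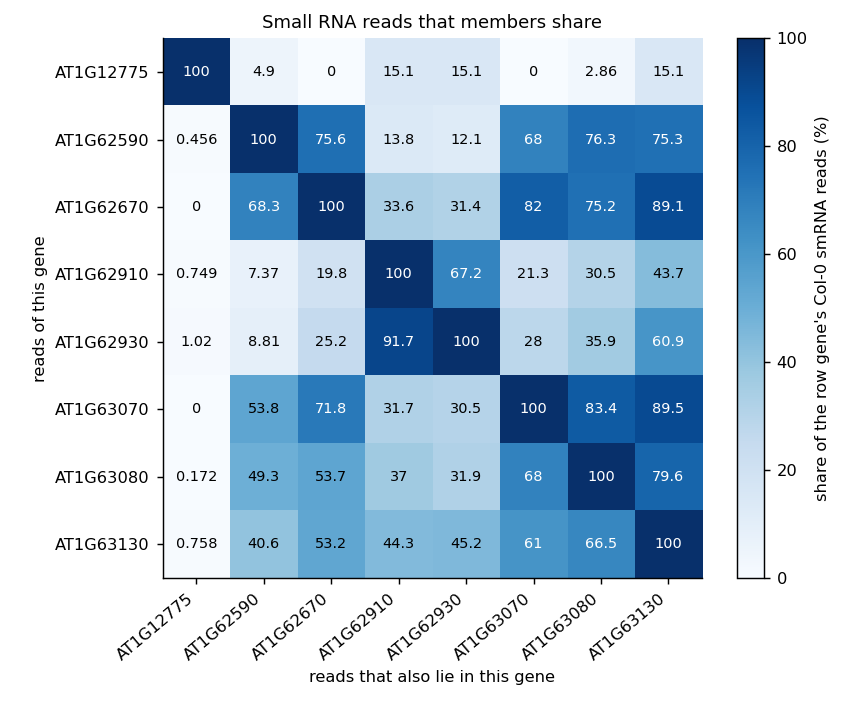
Share (%) of the Col-0 smRNA reads of the gene in each row that also lie in the gene in each column, without reads shared with miRNA or TAS genes. AT1G62930 shares 91.7% with AT1G62910, AT1G62590 shares 13.8% with AT1G62910, and AT1G12775 shares at most 15.1% with any gene.

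Per length, the Col-0 smRNA level in RPKM (reads scaled by gene length in kb and by mapped reads) was 237.8 at AT1G62590, 219 at AT1G62930, 211 at AT1G62910, 175 at AT1G63130, 172 at AT1G63070, 120 at AT1G63080, 106 at AT1G62670 and 12.47 at AT1G12775. Neighbours in this order differed beyond their exact 95% Poisson intervals except AT1G62930 and AT1G62910, and AT1G63130 and AT1G63070. AT1G12775 was thus far below the 7 clustered genes. These levels count shared reads in full at every gene. Without miRNA and TAS reads the order changed, with AT1G62910 first (211 RPKM), AT1G62930 at 158 RPKM below AT1G63130 and AT1G63070, and AT1G62590 at 106 RPKM beside AT1G62670 (106 RPKM). With divided reads it began with AT1G62930 (58.0 RPKM), AT1G62910 (54.6 RPKM) and AT1G62590 (49.7 RPKM).

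The small RNAs of the 8 genes were mostly 21 nt long, although 21-nt reads made up only 6.18% of the Col-0 smRNA library. Among Col-0 reads of 19 to 26 nt at the 8 genes, 86.6% were of 21 nt (95% Wilson interval 86.0 to 87.2%), and 81.0% (80.1 to 81.8%) without miRNA and TAS reads. In rdr6 these shares were 97.0% and 63.1% (41 of 65 reads). Reads of 24 nt at the 8 genes fell also, to 10 in rdr6, against 356 in Col-0 (log2 ratio -5.21, exact one-sided p = 2.7e-95). Reads of 22 nt, the next length, numbered 624 at AT1G63130, 573 at AT1G62910 and 55 at AT1G12775 in Col-0. By gene, reads of 21 nt made up between 71.6% of the Col-0 reads at AT1G12775 and 91.7% at AT1G62590.

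Strand depended on whether miRNA and TAS reads were kept. Antisense reads made up 98.4% of all smRNA reads at the 8 genes in rdr6, against 46.9% in Col-0 (46.0 to 47.7%). Without miRNA and TAS reads the antisense share was 32.3% in rdr6 (21 of 65 reads), against 19.1% in Col-0 (18.3 to 19.9%). The sense strand, that of the mRNA, thus gave most of the remaining small RNAs in Col-0. By gene, the antisense share of these Col-0 reads was lowest at AT1G62670 (9.51%) and AT1G63070 (10.6%) and highest at AT1G62930 (25.8%) and AT1G12775 (34.3%). The first base of the sense 21-nt reads was A in 67.0% of Col-0 reads, and among antisense reads A made up 36.8% and T (U in the RNA) 34.8%. Among all 21-nt reads with 1 location in the Col-0 library, A made up 35.1%. The sense siRNAs shown above held 2805 of the 3964 sense reads that began with A, and of the other sense reads 37.4% began with A.

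**Figure D3:**
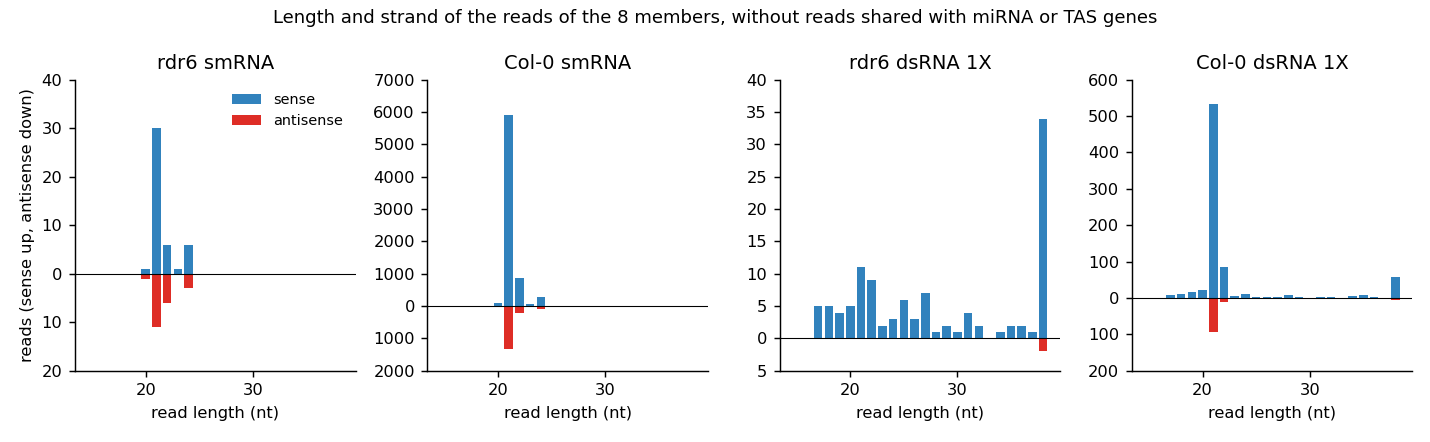
Reads of the 8 genes by length, sense reads up and antisense reads down, in rdr6 and Col-0 smRNA and in rdr6 and Col-0 dsRNA (1X), each read once, without reads shared with miRNA or TAS genes (each panel has its own scale). The 21-nt class is the highest in both smRNA libraries and in Col-0 dsRNA, and reads of 38 nt, the full read length, are the highest in rdr6 dsRNA.

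Along the genes, the small RNAs lay away from both ends of the gene and in the coding sequence, which held between 98.2% (AT1G63070) and 100% (AT1G12775, AT1G62670 and AT1G62910) of the Col-0 reads without miRNA and TAS reads. At AT1G62910 the reads, from their 5th to their 95th percentile, lay between bases 770 and 1401 of the 2194 bases of the gene. At AT1G63130 they lay between bases 968 and 1619 of 2638, and at AT1G63070 between bases 613 and 1235 of 1844. The stretches before and after held few reads. The reads were also concentrated on few positions within the stretch. At AT1G62590, AT1G62670 and AT1G63070, 2 positions held 50% of the 21-nt reads, while 4 were needed at AT1G62910, 5 at AT1G63080, 8 at AT1G63130, 10 at AT1G62930 and 19 at AT1G12775.

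A stepwise cut by DCL4 would leave 21-nt reads in 1 of 21 registers. For each gene, start positions were counted by register from the first base of the gene, with antisense reads moved by 2 bases to the register of their duplex partner. The fullest register held 49.5% of the Col-0 21-nt reads at AT1G62590, 48.3% at AT1G62910, 47.4% at AT1G63070 and 46.5% at AT1G62670, without miRNA and TAS reads. It held 38.5% at AT1G63080, 34.1% at AT1G63130, 29.3% at AT1G62930 and 15.4% at AT1G12775. An even spread would give 4.76%. The median over the 8 genes was 42.5% (43.5% with all reads), and with all reads the median over 1890 other genes, miRNA genes left out, with at least 50 reads of 21 nt was 12.98% (quartiles 10.2 and 20%). The register next to the fullest was the second at each of the 7 clustered genes, with 8.93% (AT1G62910) to 22.3% (AT1G62590) of the reads. With each distinct sequence counted once the median was 14.8%, so that the larger shares belong to abundant sequences. Antisense reads lay in the fullest register less often than sense reads did at each gene. Between 6.74% (AT1G63130) and 24.2% (AT1G63070) of them lay there, above the even share of 4.76%. At each gene, however, some other register held more antisense reads than the fullest register did. At AT1G63130 the most antisense reads in another register were 195, against 58 in the fullest. At AT1G63070 these numbers were 66, against 62. DCL4 leaves duplexes with 2-base overhangs, and reads whose exact duplex partner was also sequenced made up 50.5% of the sense 21-nt reads at AT1G62910, 26.3% at AT1G62590 and 3.10% at AT1G63080. None of the 175 reads at AT1G12775 had one.

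**Figure D4:**
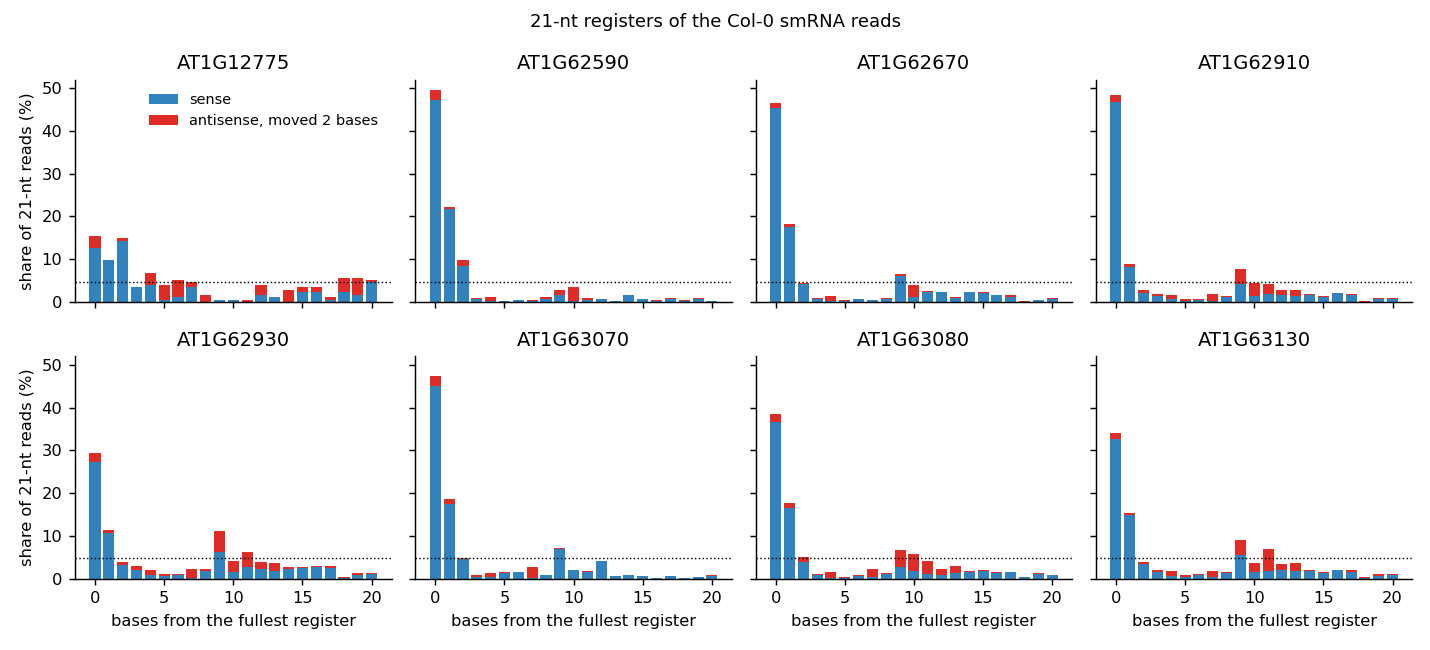
Share (%) of Col-0 smRNA reads of 21 nt in each of the 21 registers at each gene, counted from the fullest register (0 on the x axis), sense and antisense reads stacked, without reads shared with miRNA or TAS genes. The dotted line is the even share of 4.76%, and the fullest register reaches 49.5% at AT1G62590 and 15.4% at AT1G12775.

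The mRNAs were then searched for sites that could pair with 114 annotated miRNA sequences of at least 100 reads and 77 TAS sequences of at least 50 reads in Col-0 smRNA (149 distinct guides). A mismatch scored 1 and a G:U pair 0.5, each counted double at guide bases 2 to 13, and a site had a score of at most 4. The predicted cut is opposite guide bases 10 and 11. miR400, with 37 reads, was below the minimum and was not searched. All 8 genes had at least 1 site, 33 sites in all. The sites of the 22-nt TAS2 siRNA and of miR161.1 are shown because their predicted cuts fall in or next to the fullest register, beside that of AT1G12775, where it does not, with unpaired and G:U bases in capitals, 5′ to 3′ on the strand of the mRNA.
TAS2 22-nt site in AT1G63070 (chr1:23386639-23386660, strand -): cagatggtGgaaatgggatatC
TAS2 22-nt site in AT1G63130 (chr1:23413379-23413400, strand +): cagatggtGgaaatgggatatC
TAS2 22-nt site in AT1G62910 (chr1:23299591-23299612, strand +): caAatggtCgaaatgggatata
TAS2 22-nt site in AT1G62590 (chr1:23178640-23178661, strand -): caAatggtGgaaatgggGtata
TAS2 22-nt site in AT1G12775 (chr1:4354452-4354473, strand +): cGAatggtagaaatgggaCata
miR161.1 site in AT1G62670 (chr1:23205678-23205698, strand -): acccTgatgtaTtcactttca
miR161.1 site in AT1G62910 (chr1:23300033-23300053, strand +): aTccAAatgtagtcactttca

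The 22-nt TAS2 siRNA had a site in 6 of the 8 genes. Its predicted cut lay in the fullest register in 5 of them (AT1G62590, AT1G62910, AT1G63070, AT1G63080 and AT1G63130), and from 99.9% to 100% of the Col-0 reads at these 5 lay downstream of it. Of the Col-0 reads of this siRNA with ends within 1 base of it, 29.4% began 1 base later. This start moves the cut 1 base back, out of the fullest register. In AT1G12775 the cut of the printed TAS2 siRNA was 6 bases off the nearest position of the fullest register, with 99.2% of reads downstream. miR161.1 had a site in 5 genes (AT1G62670, AT1G62910, AT1G62930, AT1G63080 and AT1G63130), each with a score of 2.5, and the cut of the annotated form was in the fullest register in each. Most miR161.1 reads began 1 base earlier, which moves the cut 1 base on, to the register that held 8.93% (AT1G62910) to 18.2% (AT1G62670) of the 21-nt reads in these genes. Only 18.9% (AT1G63080) to 38.2% (AT1G62930) of the reads lay downstream of the cut of the annotated form. Where both sites occurred, in AT1G62910, AT1G63080 and AT1G63130, the cuts of the annotated guides were 441 bases apart, which is 21 whole cycles of 21 bases, and 71.9% to 81.1% of reads lay between them. In AT1G62670 and AT1G62930 the lowest scores of a window for the 22-nt TAS2 siRNA were 8 and 9, in that order of genes, above the limit for a site.

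The abundant siRNAs set the fullest register, and these guides were picked for cuts in it, so that whole cycles between them follow from the choice and only the number of cycles is described. The siRNA of AT1G62910 starts 105 bases, or 5 cycles, downstream of the predicted TAS2 cut, and the siRNA shared by 5 genes starts 147 bases, or 7 cycles, downstream of it in AT1G62590, AT1G63070, AT1G63080 and AT1G63130. In AT1G62670 and AT1G62930 the siRNAs start 294 bases, or 14 cycles, upstream of the cut predicted for the annotated miR161.1. Other guides gave other registers. miR161.2 had a site in all 7 clustered genes, 9 bases off the nearest position of the fullest register in each, and the 21-nt TAS2 siRNA had one in all 7, which was 10 bases off in 6 and in register in AT1G63070. Of the 33 sites, 11 were in the fullest register, in 7 of the 8 genes, with miRNAs taken at their annotated ends. Since the clustered genes align with each other, their sites and registers are not independent, and no test of the matches was made. Whether any of these sites was cut was not tested. The 22-nt TAS2 siRNA itself had 3 reads in rdr6 smRNA, against 122 in Col-0, and the 21-nt TAS2 siRNA had 11 in rdr6, against 1399 in Col-0.

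**Figure D5:**
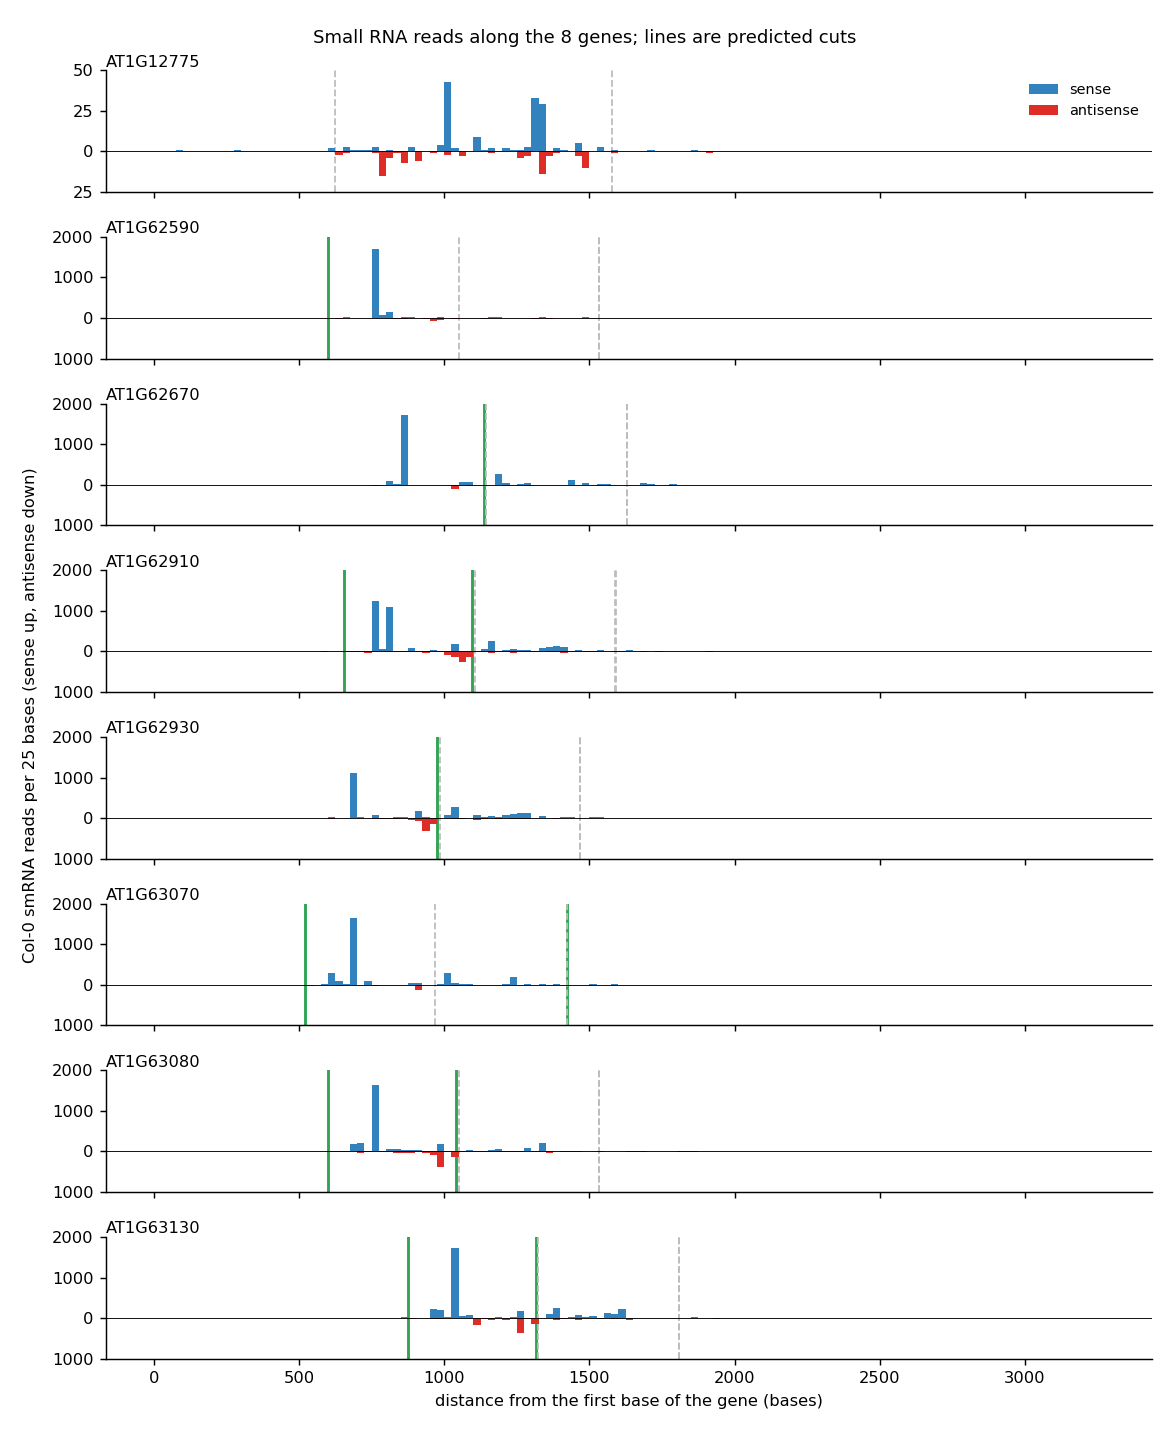
Col-0 smRNA reads (reads per 25 bases, sense up, antisense down) along the 8 genes, by distance from the first base of the gene, without reads shared with miRNA or TAS genes. Green lines are predicted cuts (miRNAs at their annotated ends) in the fullest register and grey dashed lines the other predicted cuts. Each gene has its own vertical scale. The sense reads peak downstream of the first green line in the 5 genes with a 22-nt TAS2 site in register.

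The second comparison asked whether base-paired RNA of these genes was lower in rdr6. In dsRNA-seq all 8 genes were called lower in rdr6 than in Col-0 (both 1X), beside 5.17% of 22623 genes tested. AT1G62910 had 40 reads in rdr6, against 511 in Col-0 (log2 ratio -3.35), AT1G63080 had 32 in rdr6, against 399 in Col-0 (-3.31), and AT1G62930 had 41 in rdr6, against 463 in Col-0 (-3.17). AT1G63070 had 31 in rdr6, against 323 in Col-0 (-3.05). These were the larger differences of the 8. AT1G62590 had 57 reads in rdr6, against 515 in Col-0 (-2.85), AT1G63130 had 58 in rdr6, against 494 in Col-0 (-2.76), and AT1G62670 had 42 in rdr6, against 278 in Col-0 (-2.40). AT1G12775 had the fewest, 7 in rdr6, against 42 in Col-0 (-2.26, exact p = 4.83e-06, or 4.52e-05 after Benjamini–Hochberg adjustment over all genes tested). The median of the 8 was -2.95, whereas that of all genes was 0.39. Together, with each read once, the 8 genes had 140 reads in rdr6, against 1343 in Col-0, a 7.64-fold difference (log2 ratio -2.93, exact one-sided p = 5.62e-192), and a log2 ratio of -3.59 with rRNA and tRNA reads left out of the totals. With each read divided by its locations 7 of the 8 were called, beside 4.13% of all genes tested, and AT1G12775 was not (4 reads in rdr6, 18 in Col-0).

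Most of the difference lay in reads of siRNA length. In Col-0 (1X), reads of 21 nt made up between 45.2% (AT1G12775) and 87.0% (AT1G62590) of the dsRNA-seq reads of a gene. Of these 21-nt reads, AT1G62910 had 5 in rdr6, against 376 in Col-0, AT1G63130 had 8 in rdr6, against 332 in Col-0, and AT1G12775 had 0 in rdr6, against 19 in Col-0. Over the 8 genes together there were 37 reads of 21 nt in rdr6, against 1035 in Col-0. Without reads of 20 to 25 nt, none of the 8 was called lower (Audic–Claverie), beside 4.01% of all genes tested. AT1G62930 then had 26 reads in rdr6, against 61 in Col-0 (-0.90), AT1G63130 had 35 in rdr6, against 73 in Col-0 (-0.73), and AT1G62670 had 30 in rdr6, against 45 in Col-0 (-0.26). Together the 8 had 77 such reads in rdr6, against 148 in Col-0 (-0.61, exact one-sided p = 0.00109), a difference below the 2-fold limit. All 8 genes still had log2 ratios below 0 (median -0.74, against 0.41 over all genes). Without the reads that also lie in miRNA or TAS genes, the 8 genes had 112 dsRNA reads in rdr6, against 911 in Col-0 (-2.69, exact one-sided p = 5.01e-120), of which 1.79% were antisense in rdr6 (2 reads), against 13.4% in Col-0 (122 reads). Reads over 25 nt were almost all sense, with 0 or 1 antisense read per gene in rdr6 and 0 to 3 in Col-0.

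Of the 557 positions with a 21-nt read in Col-0 dsRNA (1X), 440 also had one in Col-0 smRNA, and these held 92.5% of the dsRNA 21-nt reads. The siRNA of AT1G62910 had 0 reads in rdr6 dsRNA, against 132 in Col-0 (1X), and the siRNA shared by 5 genes had 0 in rdr6, against 44 in Col-0. Reads of siRNA length in miRNA genes moved in the same way, whereas those of genes in general differed by length. For reads of 21 nt, the median log2 ratio over 5222 genes was 1.83, against -5.26 over the 7 members with a ratio. For reads of 24 nt, of which the members had too few to be tested, the median over 5333 genes was -3.13. Reads of 20 to 25 nt in 325 annotated miRNA genes had a level of 1379 RPM (reads scaled by mapped reads alone) in rdr6 dsRNA, against 4518 RPM in Col-0 dsRNA, and of 33647 RPM in rdr6 smRNA, against 45624 RPM in Col-0 smRNA. MIR161, a gene that does not need RDR6 for its miRNA, had 172 dsRNA reads in rdr6, against 2726 in Col-0 (log2 ratio -3.66), but 14509 smRNA reads in rdr6, against 21563 in Col-0 (-0.63). Of 185 miRNA genes tested in dsRNA-seq, 106 were called lower in rdr6, beside the 5.17% of all genes. The part of this difference between the libraries in the dsRNA result of the 8 genes was not tested. Depth and rRNA differed as well, with 8193747 mapped reads in rdr6 dsRNA, of which 42.9% were rRNA or tRNA, against 10294611 in Col-0 (1X), of which 63.7% were.

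With 1-location dsRNA reads, 2 of the 4 genes that reached 10 reads were called lower, AT1G63080 (3 in rdr6, 27 in Col-0, log2 ratio -2.84) and AT1G63130 (11 in rdr6, 58 in Col-0, -2.07), beside 1.99% of all genes tested. AT1G12775 had 2 such reads in rdr6, against 8 in Col-0, and AT1G62670 had 6 in each, a log2 ratio of 0.33. A difference was not detectable at this depth in AT1G12775 and AT1G62670.

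The third comparison set the 2X against the 1X Col-0 dsRNA library, which differ in rRNA depletion and in the listed adapter. At 7 of the 8 genes, reads were called lower in 2X, beside 14.9% of 25120 genes tested. AT1G62590 had 110 reads in 2X, against 515 in 1X (log2 ratio of 2X over 1X -2.65), AT1G62910 had 146 in 2X, against 511 in 1X (-2.23), and AT1G63130 had 166 in 2X, against 494 in 1X (-1.99). AT1G12775, with 33 in 2X, against 42 in 1X (-0.77), was not called. The median of the 8 was -2.10, and that of all genes was 0.72. Here too the difference lay in siRNA-sized reads: 74 reads of 21 nt over the 8 genes in 2X, against 1035 in 1X, and without reads of 20 to 25 nt none of the 8 was called (Audic–Claverie), beside 3.62% of all genes, with 214 reads together in 2X, against 148 in 1X (0.11). Reads of 20 to 25 nt in miRNA genes had a level of 549 RPM in 2X, against 4518 RPM in 1X. Genes in general differed by length. The median log2 ratio of 21-nt reads was 0.26 over 5966 genes, against -3.58 over the 8, and that of 24-nt reads was -3.37 over 6584 genes. The siRNA of AT1G62910 had 0 reads in 2X, against 132 in 1X, whereas the siRNA shared by 5 genes had 18 in 2X, against 44 in 1X.

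Other genes of the family and pathway were read in the same way. Among 12 further PPR genes around the cluster, 10 could be tested in smRNA-seq and all 10 were called lower in rdr6, and 8 of 11 were in dsRNA-seq. Those with the most Col-0 reads after division by locations were AT1G63400 (2804 reads in rdr6, 7376 in Col-0, log2 ratio -1.45), AT1G63150 (22 in rdr6, 3524 in Col-0, -7.38) and AT1G63330 (2818 in rdr6, 5892 in Col-0, -1.12). The sequence antisense to AT1G62590 that differs from miR161.2 by 1 base lies in AT1G63400 and AT1G63330 too. Without reads shared with miRNA or TAS genes, AT1G63400 had 25 in rdr6, against 4119 in Col-0 (-7.42), and AT1G63330 had 31 in rdr6, against 2636 in Col-0 (-6.47). Of 488 PPR genes elsewhere, 59 could be tested in smRNA-seq, 10 were called lower and their median log2 ratio was -0.19.

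The tasiRNA sources fell in rdr6 in both kinds of library. TAS2 had 89 smRNA reads in rdr6, against 12436 in Col-0 (-7.19), TAS1C 117 in rdr6, against 15045 in Col-0 (-7.07), TAS1B 45 in rdr6, against 3443 in Col-0 (-6.32), and TAS1A 295 in rdr6, against 13300 in Col-0 (-5.55). All 4 were also called lower in dsRNA-seq. The miRNA genes MIR161, MIR400 and MIR173 were not called in smRNA-seq, and MIR161 and MIR173, the 2 with enough reads, were called lower in dsRNA-seq. Of the machinery genes RDR6, SGS3, DCL4, DRB4 and AGO1, 2 could be tested in smRNA-seq, where AGO1 was called lower (8 in rdr6, 80 in Col-0, -3.38), and none of 4 tested was called in dsRNA-seq. None of these pathway genes was called higher in rdr6, beside 0.685% of all genes called higher in smRNA-seq and 16.8% in dsRNA-seq. RDR6 itself had 11 dsRNA reads in rdr6, against 23 in Col-0 (-0.73), which says nothing of its function in the mutant. The flower bud markers AP1, AP3, PI, AG and SEP3 all had dsRNA-seq reads in both genotypes, and none of the 5 was called.

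Among 6057 other genes with enough reads, those most like the 8 over 4 measures (both log2 ratios, the 21-nt share and the antisense share of Col-0 smRNA) were the neighbouring PPR genes AT1G63150 and AT1G62914, the long noncoding RNA AT5G41612, TAS3b, and the protein-coding gene AT5G39370. TAS3b had 6 smRNA reads in rdr6, against 1447 in Col-0, and AT5G39370 had 5 in rdr6, against 771 in Col-0. Annotated genes also overlap members on the other strand. The noncoding RNA AT1G08537 lies opposite AT1G62590 where the reads shared with MIR161 fall (3314 of 3382 Col-0 smRNA reads there were on its strand). MIR5652 lies opposite AT1G63130 (69 of 104).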

How the data were processed

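Each library came as counts of raw reads per non-redundant sequence, with its length, and a list of all its locations. The authors deposited these counts without normalization, after trimming the 3′ adapter (untrimmed reads were kept) and aligning to TAIR9, with every location of a sequence. Gene positions and letters came from TAIR10.1, whose nuclear chromosomes were checked to have the same coordinates (100% of 4784 pairs of locations of 1 sequence agreed within 2 mismatches, and 0% after a shift of 1 base). A read was counted in a gene when its middle base lay there, at all its locations unless stated. Ratios were scaled by mapped reads (8193747 to 13773151 per library), and p is the exact one-sided Audic–Claverie probability over all genes with at least 10 reads in both libraries, tested on simulated data. Shares have 95% Wilson intervals. Coding sequences were aligned with MAFFT 7.526. Computation used Python 3.11.15, numpy 2.4.6, scipy 1.17.1 and pandas 2.3.3.

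The members, lists and tests were chosen with earlier results of these data known. Named by rule were the 8 members, the 3 neighbours of the most divided Col-0 smRNA reads, the pathway genes and bud markers, the 5 most similar genes, and per member the small RNA of the most Col-0 21-nt reads, with and without reads shared with miRNA or TAS genes. Leaving out reads that also lie in miRNA or TAS genes (those inside a member kept), and the choice of the 2 guides whose sites are printed, came after the values were seen. Alternatives were reads divided by locations, 1-location reads, each sequence once, no reads of 20 to 25 nt, totals without rRNA and tRNA, only reads of 21 or of 24 nt, no filter on low counts, an adjusted p under 0.05, a 4-fold limit and the 2X library in place of 1X. Mitochondrial locations were not set against genes.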

Additional observations from a re-analysis of the deposited data

How the results depend on the processing

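Of the values that answer a comparison, 38 kept their direction and their side of the limits under the alternatives, 15 moved and 2 became weaker, and of the values of single genes 185 kept them, 25 became weaker, 2 stronger and 6 reversed. Members called lower in smRNA-seq, rdr6 against Col-0, numbered from 6 (1-location reads, where 6 could be tested) to 8, and AT1G62590 was lost with divided reads and with a 4-fold limit. Members called lower in dsRNA-seq, rdr6 against Col-0, numbered 2 with 1-location reads (of 4 tested, beside 1.99% of all genes tested). They numbered 0 without reads of 20 to 25 nt (beside 4.01%) and 2 with the 2X library in place of 1X. In 2X against 1X they numbered 2 with 1-location reads (of 4 tested) and 0 without reads of 20 to 25 nt (beside 3.62%). Where no share of all genes is given, the count of members cannot be set against one. Over the members together the dsRNA log2 ratio of rdr6 over Col-0 was -0.61 without reads of 20 to 25 nt and -0.64 with the 2X library. The 21-nt share in Col-0 smRNA was 82.8% with divided reads, 71.5% with 1-location reads, 63.9% with each sequence once and 81.0% without miRNA and TAS reads (this last alternative was added once the data had been seen). The antisense share was 35.7% with divided and with 1-location reads, 34.2% with each sequence once and 19.1% without miRNA and TAS reads. The median share of the fullest register, 43.5% with all reads, was 26.1% with 1-location reads and 14.8% with each sequence once. The dsRNA log2 ratio of rdr6 over Col-0 at AT1G62670 turned to 0.33 with 1-location reads. Without reads of 20 to 25 nt the log2 ratio of 2X over 1X turned to 0.90 at AT1G12775, 0.054 at AT1G62590, 0.083 at AT1G62910, 0.024 at AT1G62930 and 0.091 at AT1G63070. Reads with 1 location numbered 105 over the 8 genes in Col-0 dsRNA (1X). The causes of the changes under the alternatives were not tested. No paired analysis was possible because each condition had 1 library. With 1 library per condition, the spread between plants is unknown, and shared reads limit which gene a value belongs to.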
